A study of Mus musculus with 48 samples.

Results

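The 10 genes described here (Egr1, Egr2, Egr3, Fos, Fosb, Fosl1, Jun, Junb, Atf3 and Myc) encode immediate early transcription factors and were chosen by symbol. They matched 12 probe sets of the array. Egr3 has 3, of which the brightest on average was taken. They are 10 of 19505 genes with a probe set of their own on 48 Affymetrix arrays of cultured mouse macrophages.

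Immediate early genes are transcribed soon after a signal from a growth factor, a cytokine, a microbial product or stress, without new protein synthesis, and many of their transcripts decay fast. EGR proteins are zinc-finger factors that bind GC-rich sites, FOS and JUN proteins pair into the AP-1 factor, ATF3 is a stress-induced factor that pairs with JUN proteins and restrains inflammatory genes in macrophages, and MYC drives ribosome production, metabolism and division. In macrophages these genes answer the MCSF receptor, toll-like receptors and adhesion.

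The study set macrophages of different origin from male Balbc mice side by side. Kupffer cells, the macrophages resident in the liver, were sorted from liver by F4/80, and the precursors of the monocytic macrophages were sorted from blood of those animals by CD115. Every culture, controls included, first had 1 day with MCSF, the growth factor that sustains macrophages. It then had 3 days or 1 day with HGF (hepatocyte growth factor), with Ito cells (the stellate cells of the liver) or with CD146 cells (its sinusoidal endothelial cells), or stayed in MCSF as the control, which made 16 groups of 3 arrays. The labels call the replicates biological. They do not say whether animals were pooled, whether added cells were kept apart or removed before lysis, or whether MCSF was still given together with an addition. Levels below are log2 signals as the authors normalized them, and signals of different genes are not set against each other.

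Differences are between means of 3 arrays, ± the standard error of a limma fit over all 48 arrays, and a gene is called higher or lower where its p, adjusted by the method of Benjamini and Hochberg over all genes, was under 0.05. Where the median of all genes shifted by over 0.1 in a comparison, the shift is given and the difference is relative to it, while the adjusted p is that of the unshifted difference. In bulk cultures, more cells of a type and more RNA per cell cannot be told apart. The median signal of all genes lay between 4.29 and 5.35 by group and was lowest in monocytic macrophages with HGF for 1 day. Negative control probes had group medians of 4.85 to 5.65 and 95th percentiles of 8.74 to 10.21, so the lower levels of several members lie within the upper range of these probes. Fosb lay below the negative control median on 45 of 48 arrays, Egr3 on 10, Egr1 on 1 and every other member on 0. Macrophage genes averaged 13.99 to 17.32 in the 16 groups, lowest with CD146 cells and highest in MCSF, both in Kupffer cells of 3 days. Standing apart from the other arrays of their group were 3: replicate 2 of Kupffer HGF at 1 day, replicate 1 of Kupffer MCSF at 1 day and replicate 3 of monocytic MCSF at 3 days.

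RefSeq promoter sequence on GRCm38.p6 was taken for 6 members (Atf3, Jun, Fosb, Junb, Egr2 and Fos). Entries of members on the chromosome of Egr1 were left out, so its promoter was not searched. Shown are 4 whose levels changed and which hold elements of this network, each as the 250 bases before a transcription start, 5′ to 3′, with motif matches in capitals.
Atf3, chr1:191183334-191183583, minus strand: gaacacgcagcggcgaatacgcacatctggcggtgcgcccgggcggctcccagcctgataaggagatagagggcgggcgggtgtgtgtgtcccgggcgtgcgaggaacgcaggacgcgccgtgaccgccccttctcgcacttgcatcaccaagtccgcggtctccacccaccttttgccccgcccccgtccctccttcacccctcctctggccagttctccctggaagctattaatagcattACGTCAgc
Jun, chr4:95052223-95052472, minus strand: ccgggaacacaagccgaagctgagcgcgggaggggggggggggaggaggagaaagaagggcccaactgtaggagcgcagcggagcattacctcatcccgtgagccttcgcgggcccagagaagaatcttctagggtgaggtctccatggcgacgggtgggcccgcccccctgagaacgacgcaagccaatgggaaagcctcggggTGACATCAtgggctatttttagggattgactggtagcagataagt
Egr2, chr10:67537619-67537868, plus strand: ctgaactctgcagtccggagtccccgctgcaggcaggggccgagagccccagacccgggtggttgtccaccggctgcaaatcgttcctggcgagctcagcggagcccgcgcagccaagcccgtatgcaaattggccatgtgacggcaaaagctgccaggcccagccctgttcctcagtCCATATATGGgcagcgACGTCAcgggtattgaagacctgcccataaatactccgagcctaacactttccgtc
Fos, chr12:85473640-85473889, plus strand: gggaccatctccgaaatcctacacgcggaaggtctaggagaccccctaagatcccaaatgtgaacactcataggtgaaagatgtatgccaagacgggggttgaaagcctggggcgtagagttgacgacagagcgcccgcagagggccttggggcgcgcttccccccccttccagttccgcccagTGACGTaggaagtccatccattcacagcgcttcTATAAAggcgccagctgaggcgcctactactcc
Motifs were searched on both strands. The CRE core TGACGT, bound by CREB and ATF factors, lies 8 to 3 bases before the Atf3 start, and in Egr2 and Fos. Jun holds TGACATCA, a match to TGACNTCA, which includes the CRE core where N is G. Egr2 also holds a CArG box (CCATATATGG), bound by the serum response factor, with that element inside the overlapping stretches before 3 of its 5 annotated starts, and Fos holds TATAAA. The stretch before another Egr2 start holds a CArG box of other letters. Among these 6 members the EGR site GCGNGGGCG was found in Fosb, the AP-1 site TGANTCA in 0, and none of the motifs in Junb. Of 32851 such stretches over all genes, 6.47% held TGACGT, 7.49% TGACNTCA, 6.75% TGANTCA, 4.7% GCGNGGGCG, 1.47% a CArG box and 12.4% TATAAA. A match is a run of letters in this window, with no measure of binding.

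**Figure D1:**
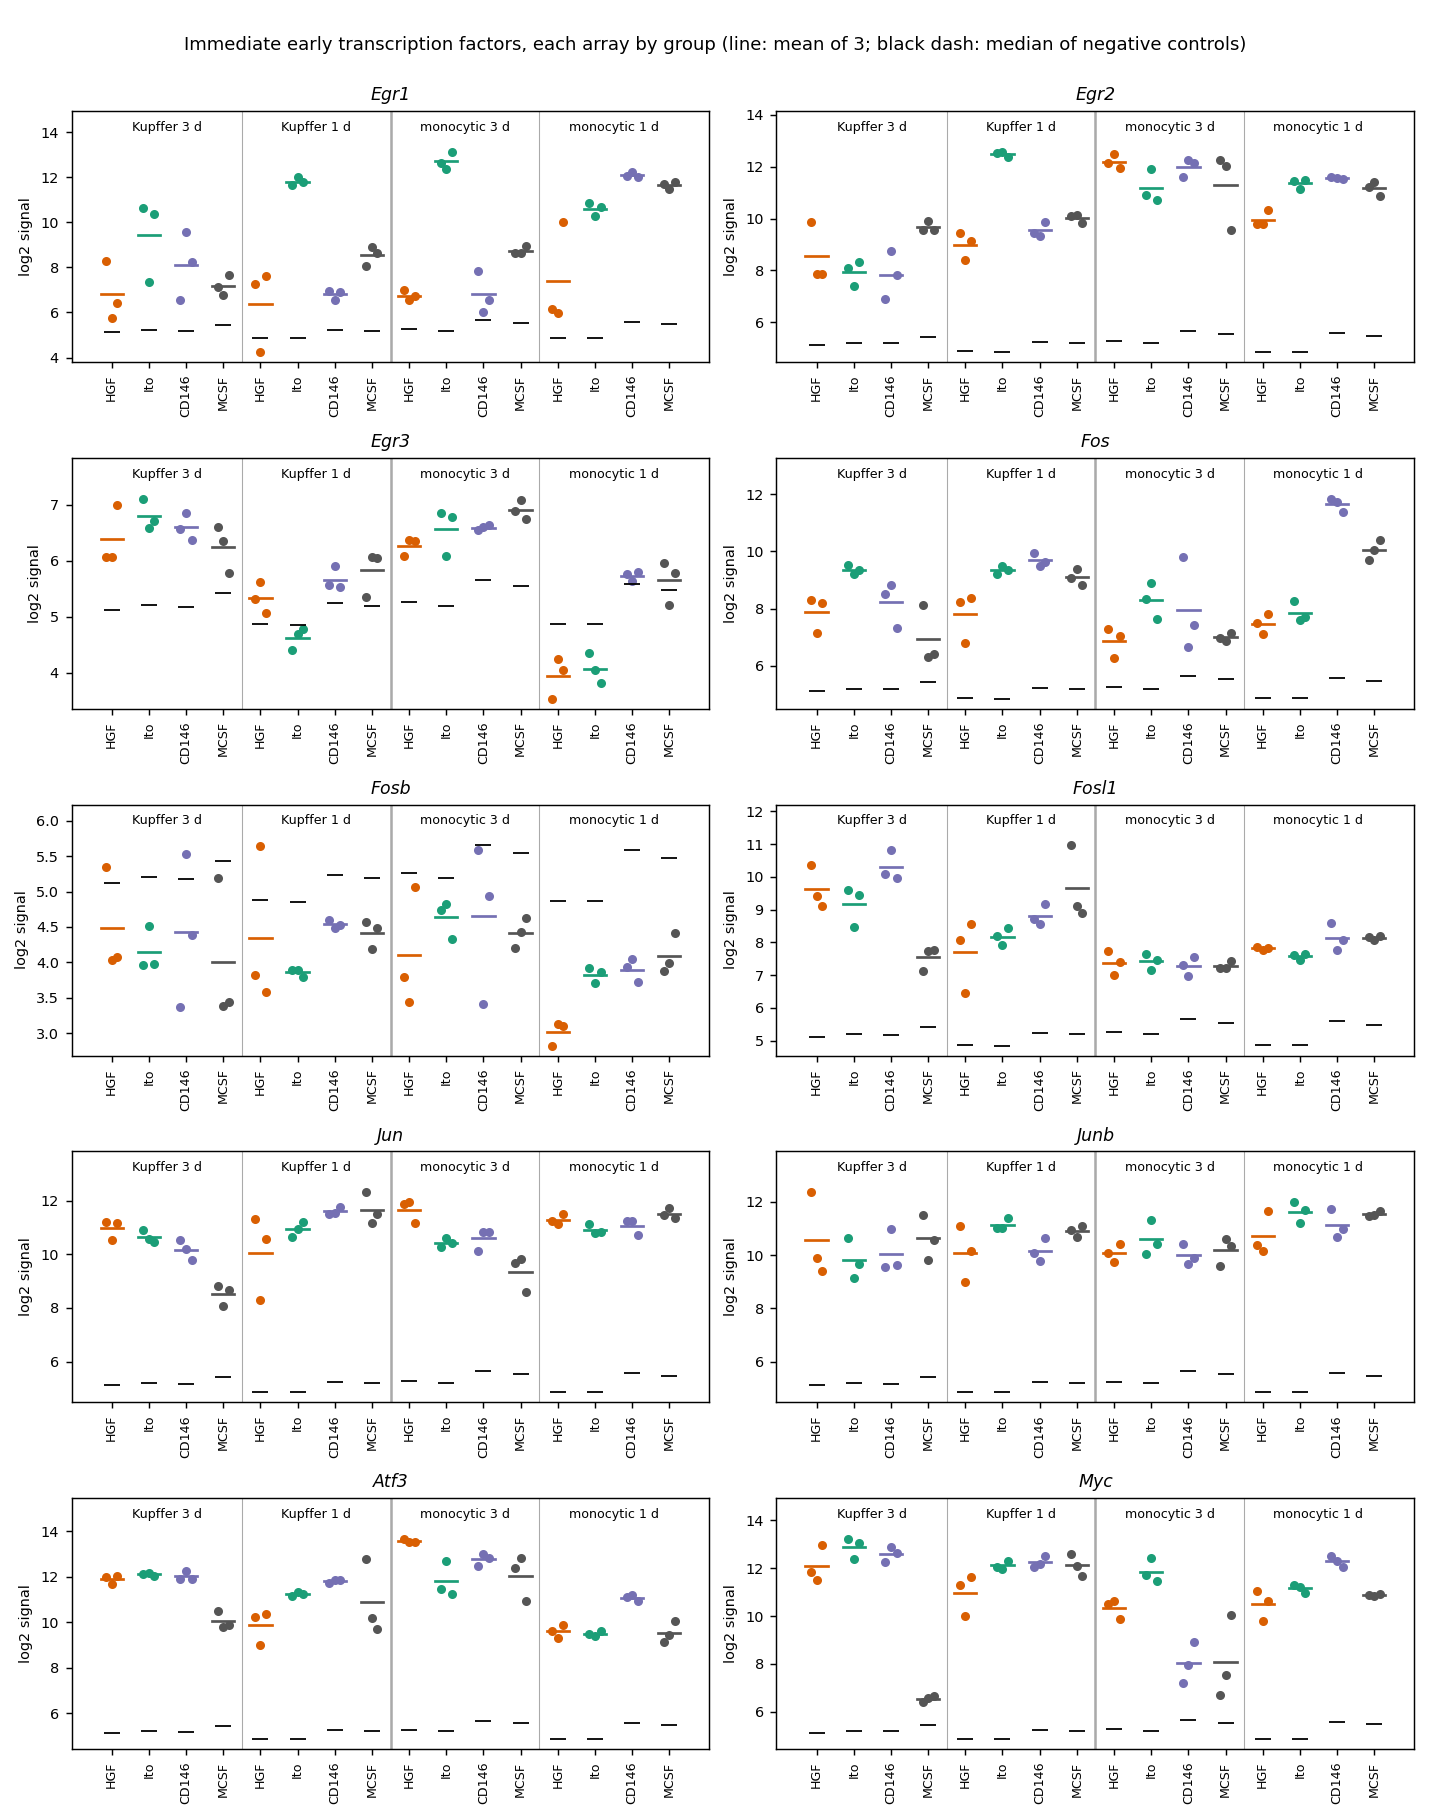
Log2 signal of each member (10 panels, each with a scale of its own) on every array (points, 3 per group), with the mean of the group (coloured line) and the median of the negative control probes (black dash), by cell type, day and medium. Myc lay at 6.41 to 6.67 on the Kupffer MCSF arrays of 3 days and at 11.51 to 13.22 on the 9 Kupffer arrays of that day with an addition.

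Each addition was compared with MCSF alone in matching cells on the matching day, so that sets of 3 additions share their control arrays. After 3 days, Kupffer cells with HGF, Ito cells or CD146 cells were higher than those in MCSF in Myc, Jun, Fosl1 and Atf3. The Myc difference came to 47.4-fold with HGF, 74.9-fold with Ito cells and 65.9-fold with CD146 cells. Ito cells also came with higher Egr1 and Fos, and Ito and CD146 cells with lower Egr2. In all, 4 of 10 members were called with HGF, where 27.6% of all genes were, 7 with Ito cells (26.8%, shift 0.11) and 5 with CD146 cells (26.4%). With 10 genes, 1 gene moves such a share by 10 percentage points.

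Monocytic macrophages of 3 days had fewer calls. With HGF, Jun, Atf3 and Myc were higher, 3 members beside 13% of all genes, and with Ito cells Egr1 and Myc were higher, 2 members beside 12.5%. With CD146 cells 0 members were called beside 2.4% of all genes.

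At 1 day most calls were lower, and the 2 higher ones were Egr1 and Egr2 in Kupffer cells with Ito cells, where Egr3 and Fosl1 were lower (4 members beside 23.5% of all genes, shift -0.24). With HGF, Kupffer cells were lower in Egr1, Fosl1 and Jun (3 beside 17.5%, shift -0.17), and with CD146 cells 0 members were called beside 3.78%. Monocytic macrophages with HGF were lower in Egr1, Egr2, Egr3 and Fos (4 beside 37.5%, shift -0.55), with Ito cells in Egr3 and Fos (2 beside 15.5%, shift -0.28), and with CD146 cells 0 members were called beside 2.33%. The calls of HGF on Kupffer cells at 1 day were all lost without the 3 arrays that stood apart, with an adjusted p of 0.366 for Egr1, 0.225 for Fosl1 and 0.487 for Jun. Leaving out replicate 2 of Kupffer HGF alone ended the calls of Egr1 (0.441) and Jun (0.2). Egr1 was also lost without replicate 2 (0.124) or 3 (0.098) of the control.

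**Figure D2:**
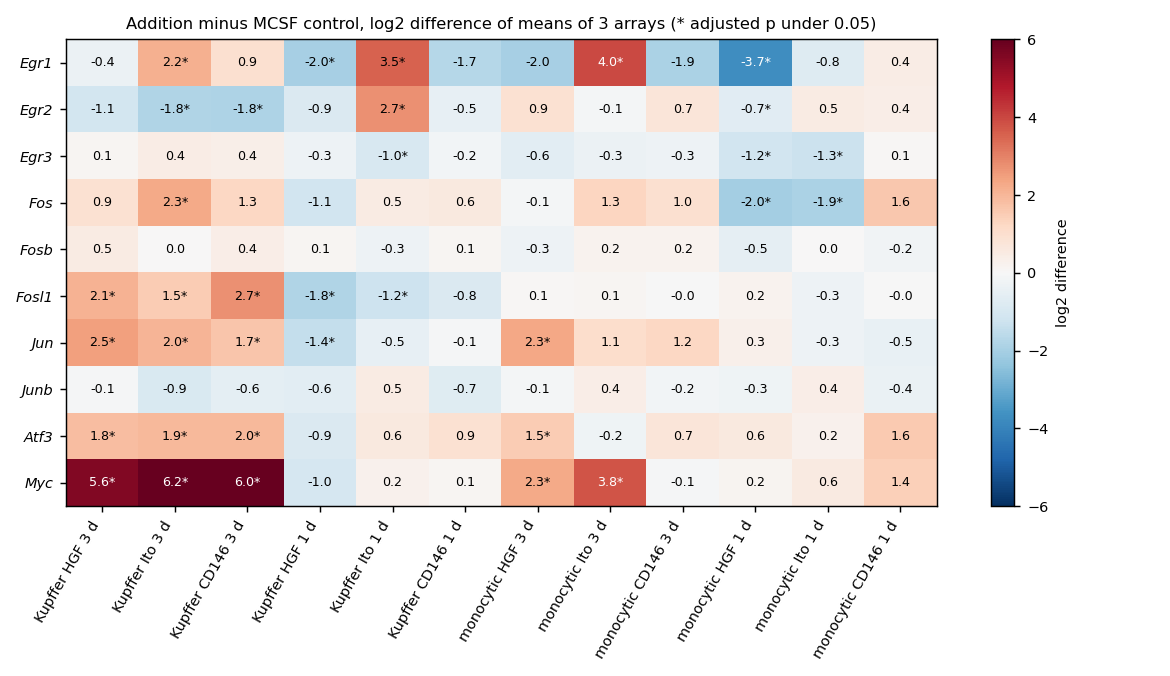
Log2 difference of group means (3 arrays each), addition minus MCSF control, for the 10 members (rows) in 12 comparisons (columns), relative to the median shift of all genes where that exceeded 0.1; asterisks mark an adjusted p under 0.05. The leftmost 3 columns, Kupffer cells at 3 days, hold the highest Myc values, with Jun, Fosl1 and Atf3 also called higher.

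Egr1 encodes an EGR factor induced by growth factors and inflammatory signals. Its group means spanned 6.35 log2 units, and of the 15 steps between neighbours in the order of the groups, 12 joined groups whose arrays overlapped. The highest group was monocytic macrophages with Ito cells for 3 days, at 12.64, 12.38 and 13.14, against 8.62, 8.63 and 8.97 in MCSF. Each array with Ito cells lay above each control array (3.98 ± 0.78, adjusted p = 0.000317). The other additions lay below every control array, at 6.99, 6.54 and 6.72 with HGF and 7.86, 6.03 and 6.57 with CD146 cells, without a call.

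Kupffer cells with Ito cells for 1 day had Egr1 at 11.65, 12 and 11.79, against 8.06, 8.93 and 8.63 in MCSF, again without overlap (3.52 ± 0.78, adjusted p = 0.00197). After 3 days the arrays lay at 10.63, 7.35 and 10.39 with Ito cells, against 7.15, 6.76 and 7.65 in MCSF, with replicate 2 of the Ito group inside the control range. That call (2.16 ± 0.78, adjusted p = 0.0253) was lost without replicate 1 (0.173) or 3 (0.14) of the Ito arrays, and without replicate 1 (0.0539) or 2 (0.0938) of the control. In monocytic macrophages of 1 day Egr1 lay at 6.15, 5.99 and 10.01 with HGF, against 11.71, 11.47 and 11.77 in MCSF, lower on every array though far apart among themselves (-3.72 ± 0.78, adjusted p = 0.000107).

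Egr2 encodes an EGR factor known for its part in macrophage maturation and in the alternative state. In Kupffer cells it had its highest level with Ito cells for 1 day, 12.54, 12.58 and 12.36, against 10.10, 10.13 and 9.82 in MCSF (2.73 ± 0.46, adjusted p = 0.000131). After 3 days the direction was the opposite: 8.09, 7.40 and 8.34 with Ito cells and 6.88, 8.74 and 7.81 with CD146 cells, against 9.54, 9.89 and 9.54 in MCSF. Neither group overlapped the control (-1.83 ± 0.46, adjusted p = 0.00405 with Ito cells; -1.84 ± 0.46, adjusted p = 0.00184 with CD146 cells). The lower Egr2 of monocytic macrophages with HGF for 1 day (-0.67 ± 0.46, adjusted p = 0.0371) was lost after median centring (adjusted p = 0.52), without replicate 1 (0.0973) or 2 (0.1) of HGF, and without replicate 1 (0.0824) or 2 (0.113) of the control.

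Egr3, a related factor best known from lymphocytes and muscle spindles, was dim, with arrays at 3.53 to 7.11. Its group means followed the median of all genes (Pearson r = 0.95 over 16 groups that share their normalization). Of its 14 calls, 10 had a group below the negative control median, and 8 turned direction on another of its probe sets, so they are given as counts: 3 additions lower, and 7 of 8 comparisons of 3 days with 1 day higher.

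Fos encodes c-Fos, a subunit of AP-1. Its highest group was monocytic macrophages with CD146 cells for 1 day, at 11.85, 11.73 and 11.38, against 9.69, 10.05 and 10.39 in MCSF. The arrays did not overlap and the difference missed the threshold (1.61 ± 0.50, adjusted p = 0.0794). It passed with array weights (0.00282), with only the arrays compared in the fit (0.000462) and without the 3 arrays that stood apart (0.029). In that comparison, where 0 members were called, 3 were with array weights, 3 with only the arrays compared and 1 with the dimmest genes left out. With HGF those cultures lay at 7.49, 7.12 and 7.82 and with Ito cells at 8.27, 7.60 and 7.71. Both groups lay wholly below the control (-2.02 ± 0.50, adjusted p = 0.000195 with HGF; -1.90 ± 0.50, adjusted p = 0.0025 with Ito cells). In Kupffer cells of 3 days Fos was at 9.52, 9.20 and 9.34 with Ito cells, against 8.13, 6.32 and 6.41 in MCSF, with no overlap (2.29 ± 0.50, adjusted p = 0.000184).

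Fosb, another FOS protein, lay at the level of the negative controls, with group means of 3.02 to 4.65, and 0 of 12 additions gave a call. Its 2 calls in other comparisons had a group below the negative control median and were lost after quantile normalization.

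Fosl1 encodes Fra-1, a FOS protein that lacks a transactivation domain. In Kupffer cells of 3 days it lay at 10.35, 9.43 and 9.11 with HGF, 9.60, 8.48 and 9.44 with Ito cells and 10.08, 10.81 and 9.97 with CD146 cells, against 7.13, 7.73 and 7.76 in MCSF. Every array with an addition lay above every control array. The differences were 2.09 ± 0.40 with HGF (adjusted p = 4.6e-05), 1.52 ± 0.40 with Ito cells (0.00134) and 2.75 ± 0.40 with CD146 cells (3.86e-07). In monocytic macrophages the 12 arrays of 3 days lay within 6.98 to 7.73 and 0 additions were called. The Kupffer control of 1 day was uneven, at 10.96, 9.12 and 8.90, and the lower Fosl1 with Ito cells (-1.24 ± 0.40, adjusted p = 0.00565) was lost without its replicate 1 (0.136), after median centring (0.0546) and with only the arrays compared in the fit (0.113).

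Jun encodes c-Jun, the main partner of FOS proteins. In Kupffer cells of 3 days it lay at 11.20, 10.54 and 11.17 with HGF, 10.92, 10.58 and 10.47 with Ito cells and 10.52, 10.21 and 9.78 with CD146 cells, against 8.82, 8.07 and 8.65 in MCSF. Every array with an addition lay above every control array. The mean differences were 2.46 ± 0.40 with HGF (adjusted p = 4.49e-06), 2.03 ± 0.40 with Ito cells (4.98e-05) and 1.66 ± 0.40 with CD146 cells (0.00129). Monocytic macrophages of 3 days had 11.87, 11.94 and 11.17 with HGF, against 9.66, 9.82 and 8.60 in MCSF (2.30 ± 0.40, adjusted p = 7.53e-05). Ito cells (10.28 to 10.61) and CD146 cells (10.12 to 10.85) left Jun above that control on every array without a call.

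Junb, a JUN protein with roles in immune cells, had group means of 9.81 to 11.64. In monocytic macrophages with CD146 cells for 3 days the mean of 9.996 lay below the 95th percentile of the negative control probes, 10.21. None of 12 additions and none of 8 comparisons of cell types gave a call at the adjusted threshold. Its arrays spread most in Kupffer cells with HGF for 3 days, at 12.37, 9.88 and 9.42. Its 2 calls were lower levels at 3 days than at 1 day, with Ito cells on Kupffer cells (-1.86 ± 0.53, adjusted p = 0.0338, shift 0.51) and in monocytic MCSF (-1.5 ± 0.53, adjusted p = 0.0469, shift 0.13). Each was lost without any 1 of 5 of the 6 arrays compared, at an adjusted p of 0.056 to 0.161 with Ito cells and 0.0679 to 0.198 in MCSF.

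Atf3 had its highest level in monocytic macrophages with HGF for 3 days, 13.66, 13.52 and 13.53, against 12.37, 12.83 and 10.94 in MCSF. The groups did not overlap, but the call (1.52 ± 0.45, adjusted p = 0.0179) was lost without replicate 3 of the control (0.97, adjusted p = 0.172) and without replicate 1 (0.0556) or 3 (0.0519) of HGF, and with only the arrays compared in the fit (0.0647). In Kupffer cells of 3 days Atf3 was at 12, 11.70 and 12.03 with HGF, 12.14, 12.16 and 12.05 with Ito cells and 11.91, 12.26 and 11.92 with CD146 cells, against 10.51, 9.80 and 9.88 in MCSF. All 9 arrays lay above the control arrays. The mean differences were 1.84 ± 0.45 with HGF (adjusted p = 0.00124), 1.94 ± 0.45 with Ito cells (0.000404) and 1.96 ± 0.45 with CD146 cells (0.000628).

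Myc encodes c-MYC. In Kupffer cells of 3 days it lay at 11.86, 11.51 and 12.97 with HGF, 13.22, 12.37 and 13.07 with Ito cells and 12.24, 12.87 and 12.65 with CD146 cells, against 6.41, 6.56 and 6.67 in MCSF. The differences were 5.57 ± 0.49 (adjusted p = 2.7e-12) with HGF, 6.23 ± 0.49 (8.37e-14) with Ito cells and 6.04 ± 0.49 (2.65e-13) with CD146 cells. The control level lies within the upper range of the negative control probes. In monocytic macrophages of 3 days Myc lay at 10.52, 10.63 and 9.89 with HGF, 11.70, 12.41 and 11.48 with Ito cells and 7.20, 7.96 and 8.90 with CD146 cells, against 6.71, 7.52 and 10.04 in MCSF. HGF (2.26 ± 0.49, adjusted p = 0.00108) and Ito cells (3.77 ± 0.49, adjusted p = 4.25e-07) gave calls, and the CD146 arrays lay inside the control range. With only the arrays compared in the fit, the call with HGF was lost (adjusted p = 0.0929). Replicate 3 of that control stood apart, and its cell cycle genes averaged 12.11, against 7.22 and 7.43 in the others. Over the groups these genes averaged 11.21 with HGF, 11.77 with Ito cells and 7.30 with CD146 cells, against 8.92 in MCSF, and their part in the monocytic Myc levels was not tested. At 1 day Myc lay at 9.80 to 12.61 over all groups and 0 of 6 additions gave a call.

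Genes known as MYC targets were higher in the groups with high Myc at 3 days. Of 15 measured, 14 were higher and 0 lower in Kupffer cells with HGF, 12 and 0 with Ito cells, and 13 and 0 with CD146 cells. Their median differences were 2.19, 1.72 and 1.90, beside -0.00094, 0.11 and 0.01 over all genes, of which 27.6%, 26.8% and 26.4% were called. With HGF they included Cdk4 (2.26 ± 0.20), a kinase of cell cycle entry, Nop58 (3.59 ± 0.33) and Npm1 (2.19 ± 0.20), which serve ribosome assembly, and the cyclin Ccnd2 (3.31 ± 0.31). Odc1, the first enzyme of polyamine synthesis, was higher by 3.54 ± 0.44 with Ito cells. In monocytic macrophages of 3 days 9 targets were higher with HGF, 8 with Ito cells and 0 with CD146 cells, and 0 were lower in each. Of all genes 13%, 12.5% and 2.4% were called in these comparisons, so the 0 with CD146 cells lies near that share. Mxd4, which competes with MYC for its partner MAX, was lower in Kupffer cells of 3 days with HGF (-2.69 ± 0.24), Ito cells (-3.55 ± 0.24) and CD146 cells (-2.99 ± 0.24). It was also called lower where Myc had no call, as with Ito cells for 1 day in Kupffer cells (-1.84 ± 0.24, shift -0.24) and monocytic macrophages (-1.09 ± 0.24, shift -0.28). Monocytic macrophages with CD146 cells for 3 days had it lower as well (-1.20 ± 0.24).

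Genes of the cell cycle and of other cell types stood at other levels in those Kupffer groups as well. Cell cycle genes averaged 12.93 with HGF, 12.43 with Ito cells and 12.98 with CD146 cells, against 7.41 in MCSF. Bile duct genes averaged 9.39, 7.20 and 8.29 in that order, against 3.71, with 4 of 4 above the negative control median with each addition and 0 of 4 in MCSF. Neutrophil genes averaged 8.31, 11.62 and 7.44, against 5.10. Endothelial genes averaged 6.48, 5.31 and 5.10, against 3.89, and hepatocyte genes 7.21, 6.39 and 5.34, against 4.75. Macrophage genes were lower with each addition, at 14.37, 14.77 and 13.99, against 17.32 in MCSF. The part of other cells, and of cell division, in the higher Myc, Jun, Fosl1 and Atf3 was not tested. Nor was it tested for the higher Egr1 and Fos with Ito cells, or for the lower Egr2. With the neutrophil genes r was 0.89 for Fos and 0.52 for Egr1 over the 8 Kupffer groups, and 0.43 and -0.0084 over all 16. Over the 16 group means r with the MYC targets was 0.80 for Myc and 0.85 for Fosl1. With the bile duct genes r was 0.47 for Myc and 0.82 for Fosl1, and with the macrophage genes -0.78 and -0.89. These points share arrays and normalization. Over the 8 Kupffer groups and the 8 monocytic groups r was 0.81 and 0.91 for Myc with the MYC targets and 0.78 and -0.61 for Fosl1 with the bile duct genes. For Fosl1 with the MYC targets it was 0.84 and 0.42.

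**Figure D3:**
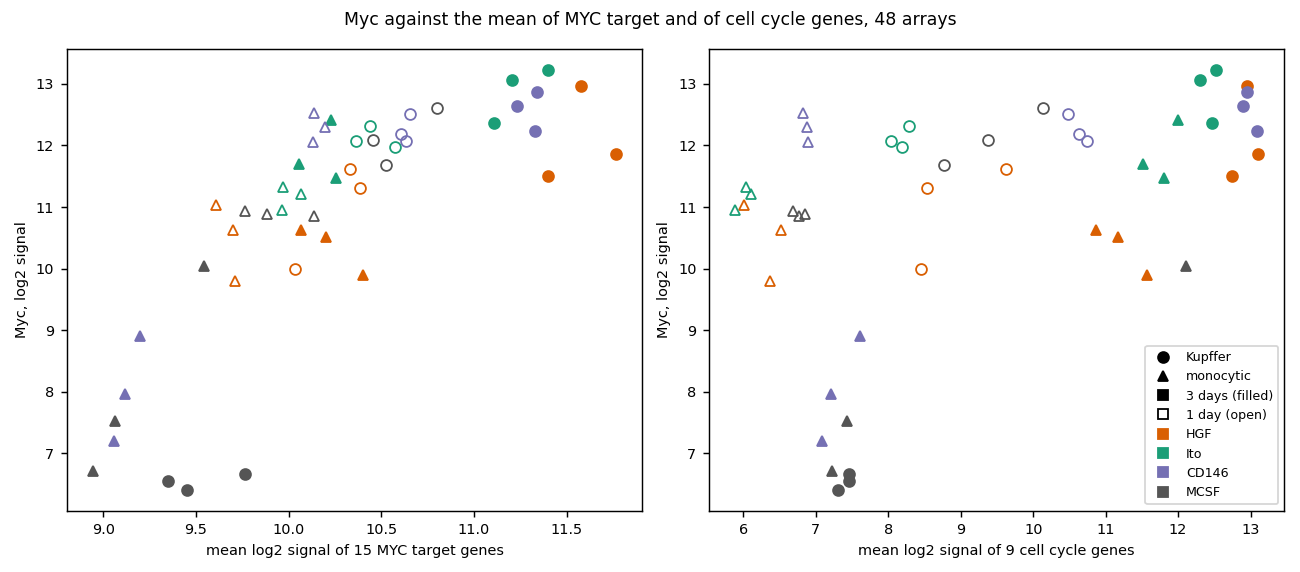
Myc against the mean log2 signal of 15 MYC target genes (left) and of 9 cell cycle genes (right) on 48 arrays; circles are Kupffer cells, triangles monocytic macrophages, filled symbols 3 days, open symbols 1 day, colours the medium. The 9 filled circles with an addition lie at the upper right of both panels, and the 3 of Kupffer MCSF lie lowest, at 6.41 to 6.67.

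Further immediate early genes, 18 in number and all measured, had 8 higher and 1 lower in Kupffer cells with Ito cells for 1 day, with a median of 0.41 beside -0.24 over all genes, of which 23.5% were called. Fosl2, a FOS protein, was among those higher (2.05 ± 0.29). Of 10 measured AP-1 and EGR target genes 7 were higher and 1 lower there (median 1.68), including the cytokine Il6 (7.21 ± 0.61), the prostaglandin synthase Ptgs2 (5.34 ± 0.58) and the urokinase receptor Plaur (2.51 ± 0.34), while Plau, the urokinase itself, was lower (-0.97 ± 0.30). Neutrophil genes averaged 10.56 in that group, against 7.69 in its control, with 7 of 7 above the negative control median, and endothelial genes 5.64, against 8.57. With CD146 cells at 1 day the neutrophil genes averaged 10.89, and Egr1 and Egr2 had no call. Ito cell genes averaged 4.92 with Ito cells, against 5.04 in the control, with 2 and 4 of 12 above the negative control median. Lrat, Reln, Colec11 and Ngfr lay below it in all 16 groups. Kupffer cells of 3 days had 7 of 12 above it with Ito cells, 7 with CD146 cells, 6 with HGF and 5 in MCSF. The means of the Ito cell genes there were 5.83, 6.58, 6.47 and 6.36 in that order, lowest with Ito cells. With Ito cells for 1 day B cell genes averaged 7.42, against 7.96 in the control, whose arrays lay at 3.93, 9.62 and 10.32. T and NK cell genes averaged 5.87, against 5.999, with the control arrays at 4.33, 6.68 and 6.99. The part of other cells in the Egr1 and Egr2 levels was not tested.

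In monocytic macrophages with HGF for 1 day the 18 genes had 0 higher and 8 lower (median -0.91, beside -0.55 over all genes, of which 37.5% were called), and 8 of 18 is near that share. The number of all genes called there was 435 after quantile normalization, against 7307. The 8 included Ier2 (-0.95 ± 0.35) and Klf2 (-1.13 ± 0.50). In Kupffer cells of 3 days they had 5 higher and 1 lower with HGF, 6 higher and 2 lower with Ito cells and 5 higher and 1 lower with CD146 cells, with medians of 0.11, 0.23 and 0.12. Of all genes 27.6%, 26.8% and 26.4% were called in these comparisons, so the counts with HGF and CD146 cells lie near that share. Fosl2 was lower there with HGF (-1.86 ± 0.29), Ito cells (-2.18 ± 0.29) and CD146 cells (-2.10 ± 0.29), while Fosl1 was higher. Batf2, an AP-1 partner, was lower with HGF (-3.56 ± 0.34), Ito cells (-3.22 ± 0.34) and CD146 cells (-3.66 ± 0.34). Of 9 measured EGR corepressors and upstream factors, 4, 3 and 2 were lower with HGF, Ito cells and CD146 cells and 0 higher, with medians of -0.61, -0.66 and -0.27. The counts with Ito and CD146 cells again lie near the share of all genes called. Of 7 heat shock genes, 3, 5 and 6 were higher and 0 lower, with medians of 0.75, 1.06 and 0.95 and Hsp90aa1 at 2.85 ± 0.39 with HGF.

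**Figure D4:**
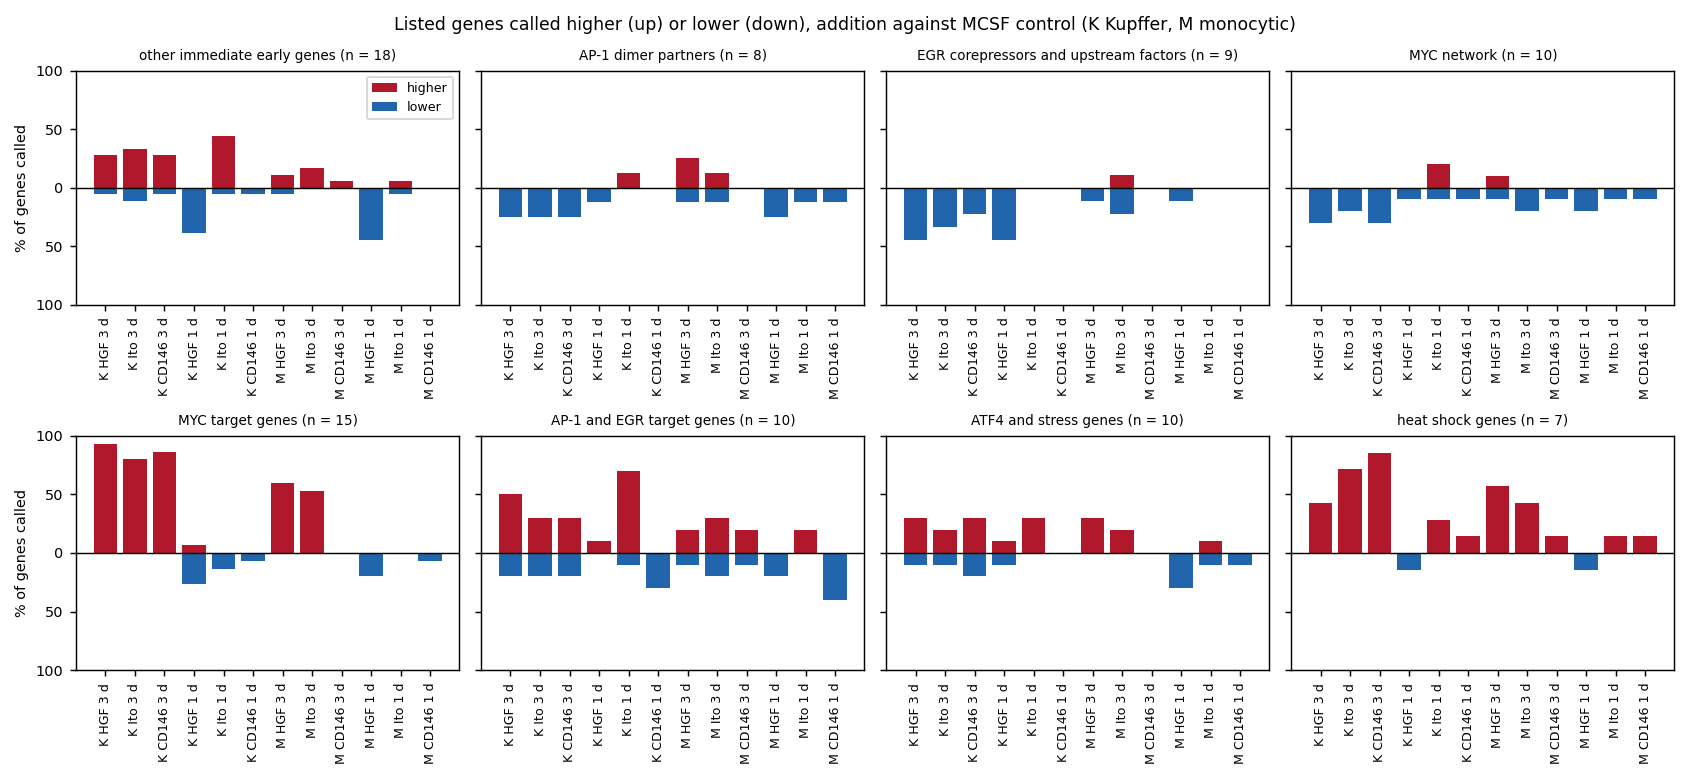
Share of the measured genes of 8 lists called higher (bars up) or lower (bars down), in percent, in 12 comparisons of an addition with its MCSF control (K Kupffer, M monocytic); n is the number measured. MYC target genes have 14, 12 and 13 of 15 higher in the Kupffer comparisons of 3 days, where 27.6%, 26.8% and 26.4% of all genes were called.

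Kupffer cells differed from monocytic macrophages of the same medium and day most often in Egr2, called in 5 of 8 comparisons, then in Fosl1 and Atf3 (4 and 4). At 3 days Egr2 was lower in Kupffer cells with HGF (-3.67 ± 0.46, adjusted p = 6.27e-08), with Ito cells (-3.24 ± 0.46, adjusted p = 1.6e-06) and with CD146 cells (-4.07 ± 0.46, adjusted p = 1.49e-09, shift -0.12). In the CD146 cultures the arrays were at 6.88, 8.74 and 7.81 in Kupffer cells, against 11.59, 12.24 and 12.16 in monocytic macrophages. Fosl1 was higher in Kupffer cells in these media, by 2.25 ± 0.40, 1.75 ± 0.40 and 3.12 ± 0.40 in that order. Bile duct genes averaged 9.39, 7.20 and 8.29 in these Kupffer groups, against 3.57, 4.24 and 4.52 in the monocytic ones, and neutrophil genes 8.31, 11.62 and 7.44, against 4.27, 4.55 and 5.09. At 3 days Kupffer cell genes averaged 8.79, 7.13, 6.57 and 8.54 in Kupffer groups with HGF, Ito cells, CD146 cells and MCSF. The monocytic groups had 8.14, 7.79, 7.83 and 9.155 in that order. Monocyte genes averaged 11.59, 11.73, 11.42 and 9.75, against 8.09, 8.52, 8.92 and 7.78. The Kupffer gene Clec4f lay below the negative control median in every group. At 1 day Kupffer cell genes averaged 5.81 to 8.38 in Kupffer groups, against 4.76 to 6.51 in monocytic ones. The part of other cells in these differences was not tested. Myc was higher with CD146 cells (4.68 ± 0.49, adjusted p = 5.61e-10) and with HGF (1.77 ± 0.49, adjusted p = 0.00648), where the call was lost without replicate 3 of Kupffer HGF (0.079). Atf3 was lower with HGF (-1.66 ± 0.45) and in MCSF (-1.98 ± 0.45). The calls were 4 members with HGF (20% of all genes), 3 with Ito cells (8.81%), 3 with CD146 cells (25.8%) and 3 in MCSF (12.1%).

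Some of these rested on single arrays. With Ito cells Egr1 was lower in Kupffer cells (-3.26 ± 0.78, adjusted p = 0.00316), not so without their replicate 2 (0.0976). In MCSF of 3 days Myc (-1.54 ± 0.49, adjusted p = 0.0282) came to -0.57 without monocytic replicate 3 (adjusted p = 0.5) and was lost without any 1 of the Kupffer arrays (0.0628 to 0.0727). Egr2 there (-1.62 ± 0.46, adjusted p = 0.0141) came to -2.48 without monocytic replicate 3 and was lost without replicate 1 (0.182) or 2 (0.137), or without Kupffer replicate 3 (0.056). With only the arrays compared in the fit, both MCSF calls were lost (0.252 for Myc, 0.163 for Egr2).

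At 1 day Kupffer cells with CD146 cells were lower in Egr1 (-5.29 ± 0.78), Egr2 (-2.02 ± 0.46) and Fos (-1.96 ± 0.50), 3 members beside 14.2% of all genes. In MCSF Egr1 was lower (-3.11 ± 0.78, adjusted p = 0.00324) at 8.06, 8.93 and 8.63 in Kupffer cells, against 11.71, 11.47 and 11.77 in monocytic macrophages. Fosl1 and Atf3 were higher there, 3 calls in all beside 21.3%, but not without Kupffer replicate 1 (adjusted p = 0.132 and 0.53). With HGF 3 members were called beside 53.8% (shift 0.40), the dim Egr3 and Fosb higher and Jun lower, of which Fosb (0.265) and Jun (0.414) were lost without replicate 2 of Kupffer HGF. With Ito cells 1 was called beside 3%, a higher Atf3 (1.75 ± 0.45, adjusted p = 0.0183), lost without any 1 of 5 arrays (adjusted p = 0.0536 to 0.0784).

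Cultures of 3 days were set against those of 1 day. In MCSF, the levels of Myc, Jun and Fos were lower at 3 days in both cell types. In Kupffer cells Myc differed by -5.73 ± 0.49 (adjusted p = 3.73e-12, shift 0.15), Jun by -3.30 ± 0.40, Fos by -2.30 ± 0.50 and Fosl1 by -2.27 ± 0.40, 4 members beside 31.8% of all genes. Markers of several other cell types had lower means at 3 days in these cultures, but Ito cell genes averaged 6.36, against 5.04 at 1 day. Endothelial genes averaged 3.89 at 3 days, against 8.57 at 1 day, bile duct genes 3.71, against 7.12, and B cell genes 4.53, against 7.96. The B cell genes of 1 day were uneven, with arrays at 3.93, 9.62 and 10.32. Hepatocyte genes averaged 4.75, against 7.71, and cell cycle genes 7.41, against 9.42. The part of other cells in the Kupffer differences between days was not tested. In monocytic macrophages Myc differed by -2.93 ± 0.49 (shift 0.13), Jun by -2.29 ± 0.40, Fos by -3.18 ± 0.50 and Egr1 by -3.04 ± 0.78, while Atf3 was higher by 2.38 ± 0.45, among 7 calls beside 29.3%. Further immediate early genes were lower too, 8 of 18 in Kupffer cells and 9 in monocytic macrophages, with 3 and 1 higher. Ier3, a survival gene, differed by -3.45 ± 0.53 and -6.26 ± 0.53 in that order.

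With an addition Myc was lower at 3 days with CD146 cells on monocytic macrophages and had no call in the other 5 comparisons of days. Atf3 was higher at 3 days in monocytic macrophages in every medium, with HGF by 3.27 ± 0.45 (shift 0.71), with Ito cells by 1.86 ± 0.45 (shift 0.44) and with CD146 cells by 1.5 ± 0.45 (shift 0.18). With CD146 cells monocytic macrophages were lower at 3 days in Egr1 (-5.46 ± 0.78), Myc (-4.46 ± 0.49) and Fos (-3.87 ± 0.50). Kupffer cells with Ito cells differed in Egr2 by -5.06 ± 0.46 between days (shift 0.51), at 8.09, 7.40 and 8.34, against 12.54, 12.58 and 12.36 at 1 day. Fosl1 was higher at 3 days in Kupffer cells with HGF (1.63 ± 0.40, shift 0.30) and CD146 cells (1.31 ± 0.40, shift 0.16), and so was Atf3 with HGF (1.74 ± 0.45). With Ito cells Fosl1 was also called higher (0.48 ± 0.40, adjusted p = 0.0354), a call lost after quantile normalization (0.384) and median centring (0.548) and without any 1 of 4 of the arrays compared (0.0688 to 0.159). With HGF the Fosl1 call was lost with only the arrays compared in the fit (0.0512) and the Atf3 call after quantile normalization (0.0572). The calls were 3 with HGF (42.7%), 5 with Ito cells (48.6%) and 5 with CD146 cells (24.6%) in Kupffer cells, and 4 (60.6%), 3 (41.5%) and 5 (27.2%) in monocytic macrophages.

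**Figure D5:**
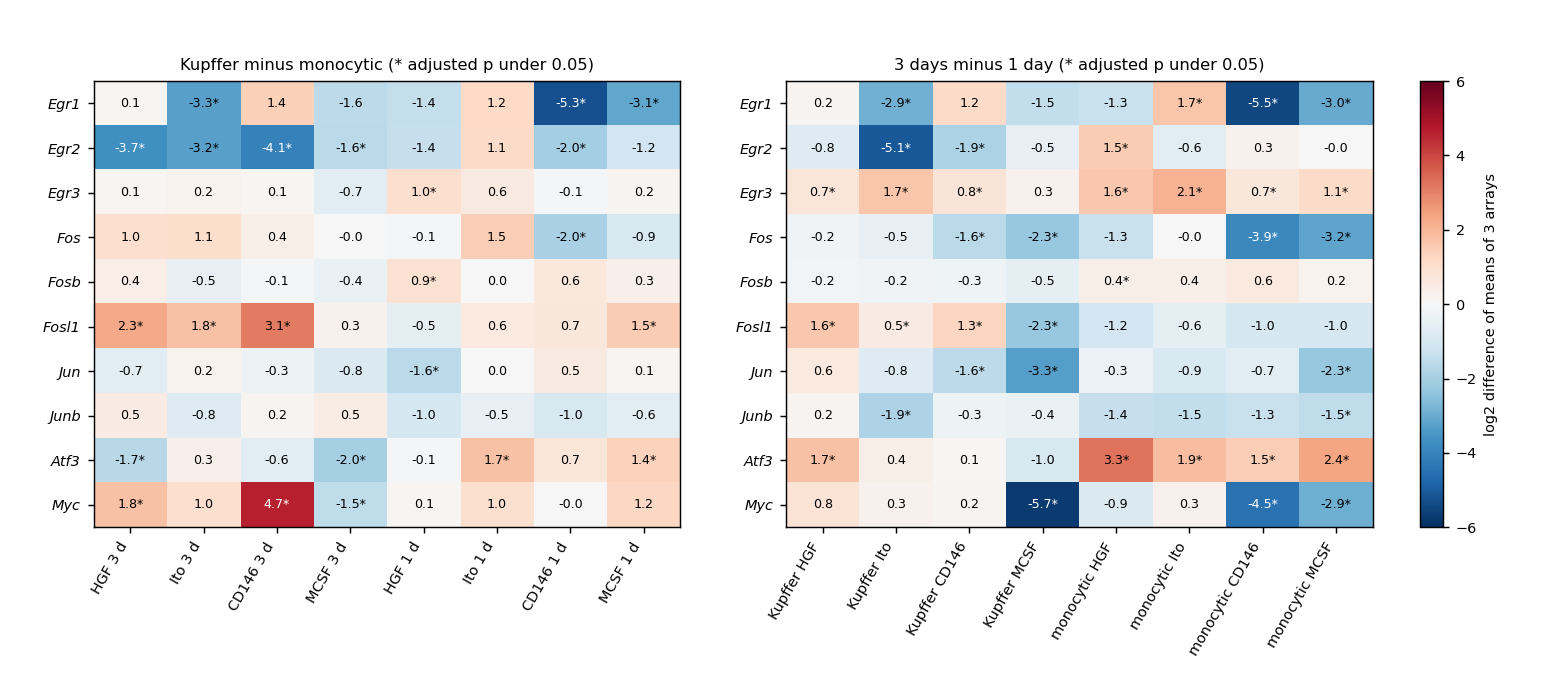
Log2 difference of group means (3 arrays each) for the 10 members, Kupffer minus monocytic (left, 8 pairs) and 3 days minus 1 day (right, 8 pairs), relative to the median shift of all genes where that exceeded 0.1; asterisks mark an adjusted p under 0.05. Egr2 is called lower in Kupffer cells in all 4 media of 3 days, and Myc, Jun and Fos are called lower at 3 days in MCSF in both cell types.

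Ito cells were set against CD146 cells directly. At 1 day Kupffer cells with Ito cells were higher in Egr1 (5.28 ± 0.78) and Egr2 (3.22 ± 0.46) than with CD146 cells, 3 calls with Egr3 beside 27.4% of all genes (shift -0.27), and at 3 days 0 members were called beside 3.08%. B cell genes averaged 7.42 with Ito cells, against 4.94 with CD146 cells at 1 day, with 5 of 5 and 2 of 5 above the negative control median. T and NK cell genes averaged 5.87, against 5.40, with 6 of 7 and 3 of 7 above it. The part of lymphocytes in these Egr1 and Egr2 differences was not tested. Monocytic macrophages of 3 days were higher with Ito cells in Egr1 (5.90 ± 0.78, adjusted p = 5.1e-07) and Myc (3.84 ± 0.49, adjusted p = 2.47e-07), 2 beside 11.3%. At 1 day Fos was lower with Ito cells (-3.49 ± 0.50, adjusted p = 4.01e-07), one of 3 calls beside 19.8% (shift -0.30).

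Whether the response to an addition differed between the cell types was tested as the Kupffer response minus the monocytic response. At 3 days Myc and Fosl1 differed with CD146 cells (6.11 ± 0.69, adjusted p = 3.48e-09 for Myc) and with HGF (3.31 ± 0.69, adjusted p = 0.000436 for Myc), both responses being larger in Kupffer cells. The calls were 3 with HGF (15.2% of all genes), 2 with Ito cells (8.75%) and 3 with CD146 cells (18.2%) at 3 days, and 2 (23.1%), 3 (3.74%) and 0 (0.877%) at 1 day.

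Genes whose 16 group means ran most like a member's were sought among 6447 genes with a span of at least 2 log2 units, by Pearson r, as a description of arrays that share their normalization. For Egr1 they were Ier2 (0.77), Trib1 (0.75), Ube2a (0.73), for Egr2 Atp7a (0.89), Klhl9 (0.87), Cd300ld (0.87), and for Fos Klf2 (0.83), Snrpf (0.81), Nrg4 (0.81). For Fosl1 they were Serpinb6b (0.91), Prmt1 (0.89), Amotl1 (0.88), for Jun Flrt2 (0.90), Irf2bpl (0.84), Clic1 (0.80), and for Junb Zc3h12a (0.89), Nfkbiz (0.88), Snx18 (0.87). For Atf3 they were Plekho2 (0.93), Rgs2 (0.93), Triap1 (0.90), and for Myc Hnrnpab (0.93), Serbp1 (0.93), Pum3 (0.90). Egr3 and Fosb lay near the level of the control probes and are left out here.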

How the data were processed

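Log2 signals of 48 arrays were used as deposited; per the submitters' processing notes the authors made them with RMA in the Transcriptome Analysis Console (versions not given in the sources used here). RNA was extracted with QIAZOL and hybridised as biotinylated cRNA, per the labels' protocols. Of 22206 transcript probe sets, 19572 had 1 gene symbol in the platform annotation, 2634 none, and they gave 19505 genes after keeping the probe set of highest mean. Samples were grouped by cell, medium and day from the labels. limma 3.58.1 (R 4.3.3) fitted 1 mean per group over all arrays with lmFit and eBayes, and in each of 38 contrasts the p-values of all genes were adjusted together (Benjamini-Hochberg, threshold 0.05). Standard errors rest on the spread of all 48 arrays. The fit was tested on simulated data with independent normal errors. These held no arrays that stand apart and no shift of all genes, so the test does not cover such features. The members and gene lists were chosen with earlier results of these data known. For each list and contrast the text draws on up to 4 called genes of smallest adjusted p, and for likeness on 3 genes per member. Alternatives were quantile normalization, median centring, leaving out the dimmest 25% of genes, a trended robust variance, array weights, a replicate block, only the arrays compared, other probe sets, a 2-fold minimum, and leaving out each array or the 3 that stood apart. Tables used Python 3.11.15 and pandas 2.3.3, and promoters came from RefSeq (GRCm38.p6).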

Additional observations from a re-analysis of the deposited data

Results flagged for a closer look

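In 13 cases the response of a member to an addition differed between Kupffer cells and monocytic macrophages by a test of the difference itself, given here as the unshifted Kupffer response minus the monocytic response on the log2 scale, with limma's adjusted p. With CD146 cells for 3 days the value was 6.11 for Myc (adjusted p = 3.48e-09), 2.75 for Fosl1 (0.000213) and -2.57 for Egr2 (0.00326), the last moving to -1.70 without replicate 3 of monocytic MCSF. With HGF for 3 days it was 3.31 for Myc (0.000436), 2.00 for Fosl1 (0.0097) and -2.05 for Egr2 (0.0269), where Egr2 lost its call without that array (adjusted p = 0.187), without replicate 2 of Kupffer MCSF (0.0644) or of monocytic HGF (0.0665), and without replicate 2 (0.0998) or 3 (0.0986) of Kupffer HGF. With Ito cells for 3 days it was 2.56 for Myc (0.0104), lost without the same monocytic MCSF array (1.59, adjusted p = 0.0763). For Atf3 it was 2.29 (0.0138), lost without replicate 2 of monocytic MCSF (0.0676) or replicate 3 of monocytic Ito (0.057).

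With Ito cells for 1 day the value was 4.31 for Egr1 (0.0174), 2.29 for Egr2 (0.0387) and 2.43 for Fos (0.0399). Leaving out most single arrays of these groups ended the call of Egr2 (adjusted p = 0.054 to 0.1) and of Fos (0.0506 to 0.0935). With HGF for 1 day it was -1.63 for Fosl1 (0.0304) and 1.22 for the dim Egr3 (0.0129), beside a shift of all genes of 0.36. Without the 3 arrays that stood apart the adjusted p was 0.601 for Fosl1 and 0.114 for Egr3, and Fosl1 was also lost without replicate 1 of Kupffer MCSF (0.147) or replicate 2 of Kupffer HGF (0.179). The causes were not tested.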

How the results depend on the processing

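Of 114 calls in 380 comparisons of a member, 66 were kept under every alternative run. The calls numbered 34 for additions, 23 between cell types, 36 between days, 8 for Ito against CD146 cells and 13 between responses. With array weights the cell types gave 35 and Ito against CD146 cells 16, and with a fit of only the arrays compared the comparison of Ito with CD146 cells gave 18; the cause was not tested. With 1 array left out in turn the counts ran 32 to 39, 21 to 25, 32 to 38, 8 to 10 and 10 to 15 in that order. With the replicate number as a block they were 36, 23, 35, 8 and 13. The labels do not say that a number marks a shared animal, and the numbers were not taken to pair the arrays. Over 120 pairs of groups same-numbered arrays did not deviate together on average (mean correlation -0.010, against 0.0055 for other numbers). In 1 pair all 3 correlations were over 0.1. Such a mean cannot exclude pairing between a few groups. On its probe set of middle brightness Egr3 turned direction for Kupffer minus monocytic HGF at 1 day (-0.11), for 3 days minus 1 day in Kupffer CD146 (-0.56), monocytic MCSF (-0.30), HGF (-0.020) and CD146 (-0.16), and for the difference of HGF responses at 1 day (-0.10). On its dimmest probe set it did for Kupffer HGF between days (-0.32) and Kupffer Ito minus CD146 at 1 day (0.035). Counts over all genes moved most for HGF on monocytic macrophages at 1 day, 435 after quantile normalization and 633 after median centring against 7307, and for HGF on Kupffer cells at 1 day, 0 against 3421 in a limma fit of only the arrays compared. Egr3, Fosb and the lower levels of Egr1, Egr2, Fos, Fosl1, Jun and Myc lie within the range of the negative control probes. In monocytic macrophages Junb with CD146 cells for 3 days and Atf3 in MCSF of 1 day do so too. This limits the folds, and 3 arrays a group limit the precision.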
